A study of Homo sapiens with 4 samples.

Results

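The genes described here are 43 human genes of the amino acid response run by the transcription factor ATF4 and of the unfolded protein response of the endoplasmic reticulum (ER), followed in MDA-MB-231 cells given FOXC1. They were listed by name, with earlier results of these data known. All 43 were found among the 18417 genes with a probe set of their own. For each gene the brightest probe set was read. The genes were set in 6 roles. These are 7 transcription factors and regulators, 5 stress effectors and surface or secreted products, 7 enzymes of amino acid and one-carbon metabolism, 11 tRNA synthetases, 4 stress sensors, and 9 genes of ER folding and disposal. The first 4 roles, 30 genes, are called the ATF4 branch below.

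MDA-MB-231 is an established human breast cancer line without oestrogen receptor, grown here in DMEM with 10% serum and antibiotics. The cells were transfected, with a lipid reagent, with either a FOXC1 plasmid or the vector alone, so the vector cells share the transfection but not the insert. FOXC1 is a forkhead transcription factor. Each group had 2 arrays that the labels call biological replicates, and each array gave a linear PLIER signal per probe set. The sources used here do not say whether the cells were pools or clones, or how long after transfection they were taken. FOXC1 mRNA itself was not analysed here, and no check of the labels by it was made. Median signals over all probe sets lay between 489 and 512 in the 4 arrays. The line's markers VIM, CD44, CAV1, AXL and EGFR had mean signals from 4455 to 16879. ESR1, PGR, GATA3 and CDH1, chosen as low in this line, had means from 93.3 to 898. GATA3, at 898 in vector and 795 in FOXC1 arrays, was not low by signal. It lay above the 50th percentile of named probe sets (782) and fell 1.13-fold. The 11 measured markers of leukocytes, endothelium, fibroblasts and hepatocytes had means from 63.1 to 1221. PTPRC and DCN rose and PECAM1 fell among them. Their signals summed to 5209 and 5587 for vector and to 5043 and 5090 for FOXC1, and their part in the results below was not tested.

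ATF4 is made when amino acids run short or ER stress, haem lack or virus infection lead one of a family of kinases to phosphorylate the translation factor eIF2. General translation then falls while the ATF4 message is read more, so ATF4 activity is set largely by translation and can change without its mRNA. ATF4 pairs with C/EBP factors on a composite DNA element and raises genes of amino acid uptake, serine and asparagine synthesis, tRNA charging and stress signalling. The unfolded protein response has 2 more branches, led by ATF6 and by the kinase ERN1 (IRE1), which raise ER chaperones and the machinery that removes misfolded proteins. Cancer cells are known to use the ATF4 response to keep supply of amino acids.

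More genes of the ATF4 branch rose than fell in FOXC1 cells. None of the 9 listed ER folding and disposal genes rose, but 9 genes are few where 15.9% of all genes rose. Wider lists of ER genes, described further below, held rises as well as falls. Of the 30 genes of the ATF4 branch, 17 rose and 3 fell at an adjusted p of 0.05 in limma, and 10 did not pass. Over all genes 15.9% rose and 15.5% fell, against 56.7% and 10% in the ATF4 branch. Of the 9 ER folding and disposal genes 0 rose and 3 fell, which is 33.3%. In a list as short as this, such counts are not far from the shares of other genes. The median log2 difference, FOXC1 minus vector, was 0.11 in the ATF4 branch, 0.06 in its tRNA synthetases alone, -0.04 in the ER genes and 0.03 over all genes. The median of the ATF4 branch lay 0.15 above that of the ER genes. Both FOXC1 arrays lay above both vector arrays in 20 genes of the ATF4 branch and below them in 5. This compares with 37.1% above and 26.4% below over all genes. Over all genes the groups were apart, in either direction, in 63.5%. In the ER genes the arrays lay above in 1 gene, below in 4 and overlapped in 4. These counts describe the lists, and no test of one list against the other was made. The changes were small for most genes, and ASNS, DDIT3 and ATF5 stood out with folds above 1.5.

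The number of calls depended on scaling and on how the variance was estimated. The 17 rises of the ATF4 branch were 10 without a variance trend, 11 without vector replicate 1 and 20 with each array centred on the median of its named probe sets. They were 10 with centring on all probe sets, an alternative chosen after seeing the data. Either of the 2 choices that gave 10 ended the calls of CEBPG, TRIB3, SHMT2, GARS1, IARS1 and MARS1. Leaving out the trend also ended that of PSAT1 (adjusted p = 0.0549), and the centring also that of CHAC1 (adjusted p = 0.0745). The centring also moved the balance of all calls from 50.6% higher to 33.9% higher. With unnamed probe sets fitted too, the calls of CEBPB, CEBPG, JDP2, SHMT2, MARS1, EIF2AK4 and HERPUD1 were lost (adjusted p from 0.0545 in HERPUD1 to 0.117 in CEBPB). Leaving out 1 array leaves the other of its group alone, which is then assumed to vary like the other group, so calls lost that way are lost in a smaller fit. The calls of 10 genes held in each of 16 alternatives, namely the rises of ASNS, DDIT3, ATF5, PPP1R15A, CTH, MTHFD2, WARS1 and YARS1 and the falls of ATF4 and EDEM1. That of ATF4 was read on its brighter probe set except where probe sets were averaged. The other probe set of ATF4 did not pass (log2 0.05, adjusted p = 0.219).

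**Figure D1:**
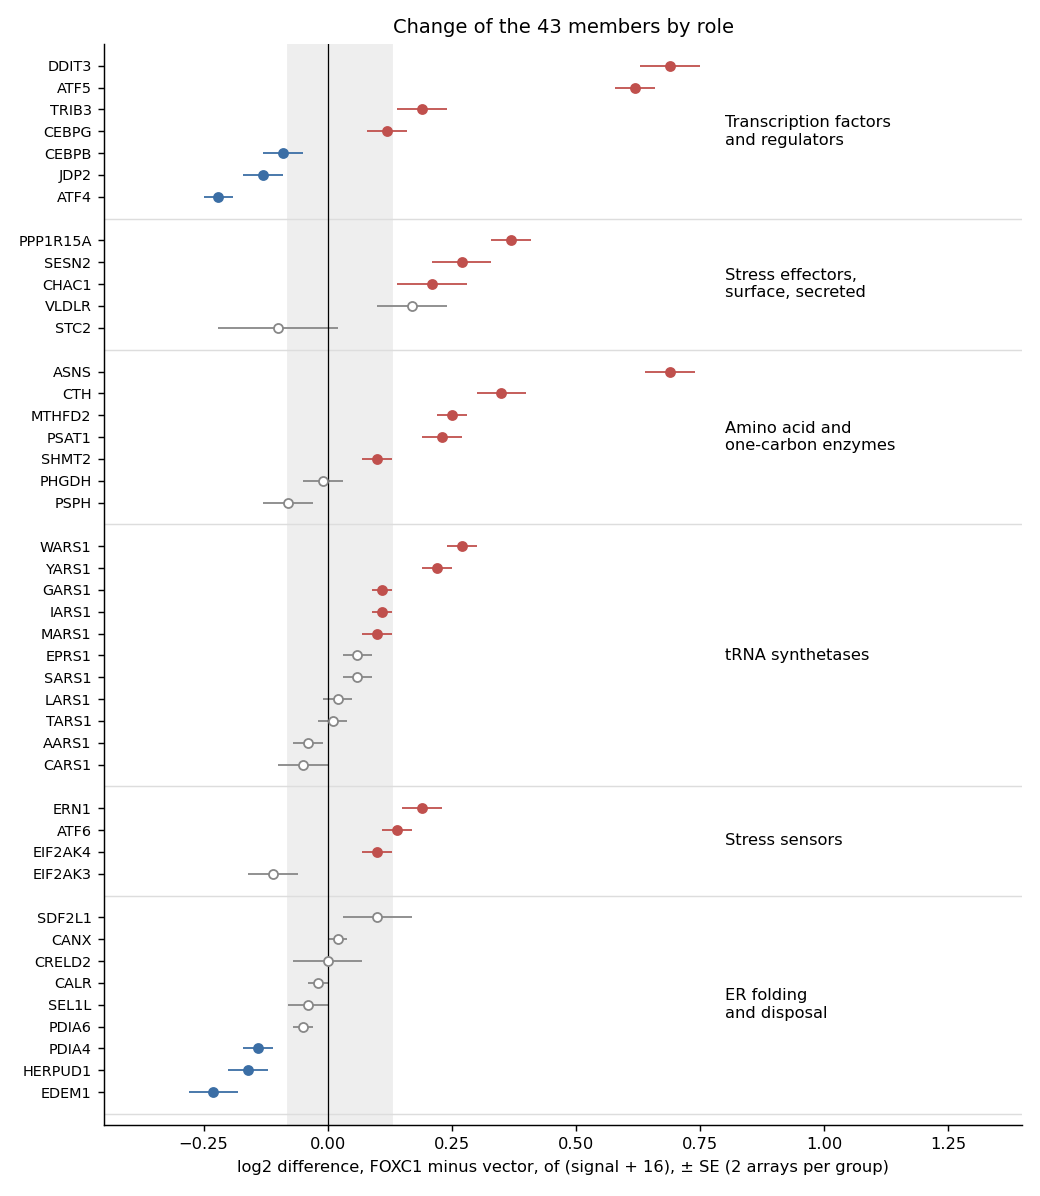
Log2 difference between FOXC1 and vector arrays, on the scale of log2(signal + 16), for the 43 genes by role, with the standard error from limma as bars (2 arrays per group). Red points rose, blue points fell, and open grey points did not pass an adjusted p of 0.05, with the grey band marking the range from the 25th to the 75th percentile of all 18417 genes (-0.08 to 0.13). ASNS, DDIT3 and ATF5 lie between 0.62 and 0.69, and no ER folding and disposal gene is red.

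The promoters were searched for the DNA elements of both arms. RefSeq promoter windows (GRCh38.p14), running from 250 bases before to 50 bases after the start of transcription, were at hand for 39 of the 43 genes. Each window was searched on both strands. The C/EBP-ATF response element was searched as TGATGNAA, whose reverse strand reads TTNCATCA. It was found in 7 of 26 windows of the ATF4 branch, those of ASNS, CHAC1, AARS1, CARS1, IARS1, MARS1 and TARS1, and in 1 of 9 ER windows, that of HERPUD1. It was found in 2.54% of the 14237 windows of measured genes. The ER stress element (ERSE), a CCAAT and a CCACG with 9 bases between them, was found in CALR, CANX and CRELD2 and in 0.119% of measured genes. Its compact form, ERSE-II, an ATTGG and a CCACG with 1 base between them, was found in HERPUD1 and SDF2L1 and in 0.0913% of measured genes. The unfolded protein response element TGACGTGG was found in none of the 39 windows, against 0.906% of measured genes. The forkhead core GTAAACA was likewise found in none of the 39, against 2.45%. At shares this low, 39 windows are too few for the absence of a match to be read as a lack. These matches are letters in a short window, and no binding was measured. The stretches below, 5′ to 3′ in the direction of the gene and ending before its start, carry the match in capitals. They are a selection that shows the ATF4 element beside both ER elements, with HERPUD1 holding one of each. The matches of CARS1, MARS1 and TARS1 reach or lie past the start and are not printed.
ASNS, chr7:97872449-97872496, minus strand: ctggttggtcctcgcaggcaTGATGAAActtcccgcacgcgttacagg
CHAC1, chr15:40953242-40953289, plus strand: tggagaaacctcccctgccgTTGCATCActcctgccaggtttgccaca
IARS1, chr9:92293698-92293730, minus strand: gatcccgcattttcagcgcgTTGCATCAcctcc
AARS1, chr16:70289666-70289713, minus strand: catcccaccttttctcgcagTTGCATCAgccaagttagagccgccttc
HERPUD1, chr16:56931946-56932055, plus strand: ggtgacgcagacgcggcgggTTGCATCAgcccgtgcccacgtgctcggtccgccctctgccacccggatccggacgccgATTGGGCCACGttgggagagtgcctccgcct
SDF2L1, chr22:21642094-21642144, plus strand: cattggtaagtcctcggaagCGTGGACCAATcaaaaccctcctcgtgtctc
CANX, chr5:179698758-179698816, plus strand: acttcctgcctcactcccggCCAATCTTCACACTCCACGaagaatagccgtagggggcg
CRELD2, chr22:49918534-49918592, plus strand: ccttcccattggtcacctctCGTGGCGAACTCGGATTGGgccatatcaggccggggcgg
CALR, chr19:12938364-12938422, plus strand: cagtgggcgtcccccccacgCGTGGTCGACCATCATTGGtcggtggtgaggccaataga
In the 7 ATF4 branch genes with the ATF4 element the readouts were mixed. ASNS, CHAC1, IARS1 and MARS1 rose, and AARS1, CARS1 and TARS1 did not pass. HERPUD1, with both elements, fell. The other 4 genes with an ERSE or ERSE-II, CALR, CANX, CRELD2 and SDF2L1, did not pass.

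Among the 7 transcription factors and regulators 4 rose (57.1%) and 3 fell (42.9%), against 15.9% and 15.5% of all genes. Above the 50th percentile of signal the shares were 26.6% and 25%. ATF4 itself was read by 2 probe sets that did not give the same answer. On the brighter one its signal was 7588 and 7385 in vector and 6476 and 6379 in FOXC1 arrays, a fall of 1.16-fold (log2 -0.22 ± 0.03 SE, adjusted p = 1.71e-06). On the other it was 5077 and 4986 in vector and 5347 and 5101 in FOXC1 arrays (log2 0.05 ± 0.03 SE, adjusted p = 0.219). The groups did not overlap on either probe set, but the difference had opposite signs, and the mean of both gave log2 -0.08 (adjusted p = 0.0265). A fall of the ATF4 message therefore rests on 1 of its probe sets.

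ATF5, a factor related to ATF4 and also controlled by translation, rose 1.54-fold. Its signal was 1628 and 1546 in vector and 2468 and 2436 in FOXC1 arrays (log2 0.62 ± 0.04 SE, adjusted p = 3.9e-10). DDIT3 (CHOP), a C/EBP family factor that promotes cell death under lasting stress, rose 1.61-fold. Its signal was 748 and 684 in vector and 1199 and 1124 in FOXC1 arrays (log2 0.69 ± 0.06 SE, adjusted p = 2.17e-08). In both genes the lower FOXC1 array lay above the higher vector array by more than the spread of either group, and they held ranks 140 and 105 from the top among all 18417 log2 differences.

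TRIB3, a pseudokinase that is induced by ATF4 and restrains it, rose 1.14-fold, from 1186 and 1207 to 1403 and 1332. CEBPG, a partner of ATF4, rose 1.08-fold, from 1969 and 1881 to 2074 and 2105. CEBPB, another C/EBP factor, fell 1.07-fold, from 3478 and 3362 to 3187 and 3215. JDP2, a repressor that binds AP-1 and cyclic AMP response sites, fell 1.10-fold, from 2798 and 2844 to 2517 and 2631. The groups did not overlap in any of these 4 genes. Without vector replicate 1 each call was lost, at log2 values of the same sign (log2 0.18 for TRIB3, 0.15 for CEBPG, -0.07 for CEBPB and -0.14 for JDP2). Without vector replicate 2 those of CEBPG (0.08), CEBPB (-0.12) and JDP2 (-0.12) were lost. Without FOXC1 replicate 1 those of CEBPB (-0.09) and JDP2 (-0.10) were lost, and without FOXC1 replicate 2 those of CEBPG (0.11) and CEBPB (-0.10).

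**Figure D2:**
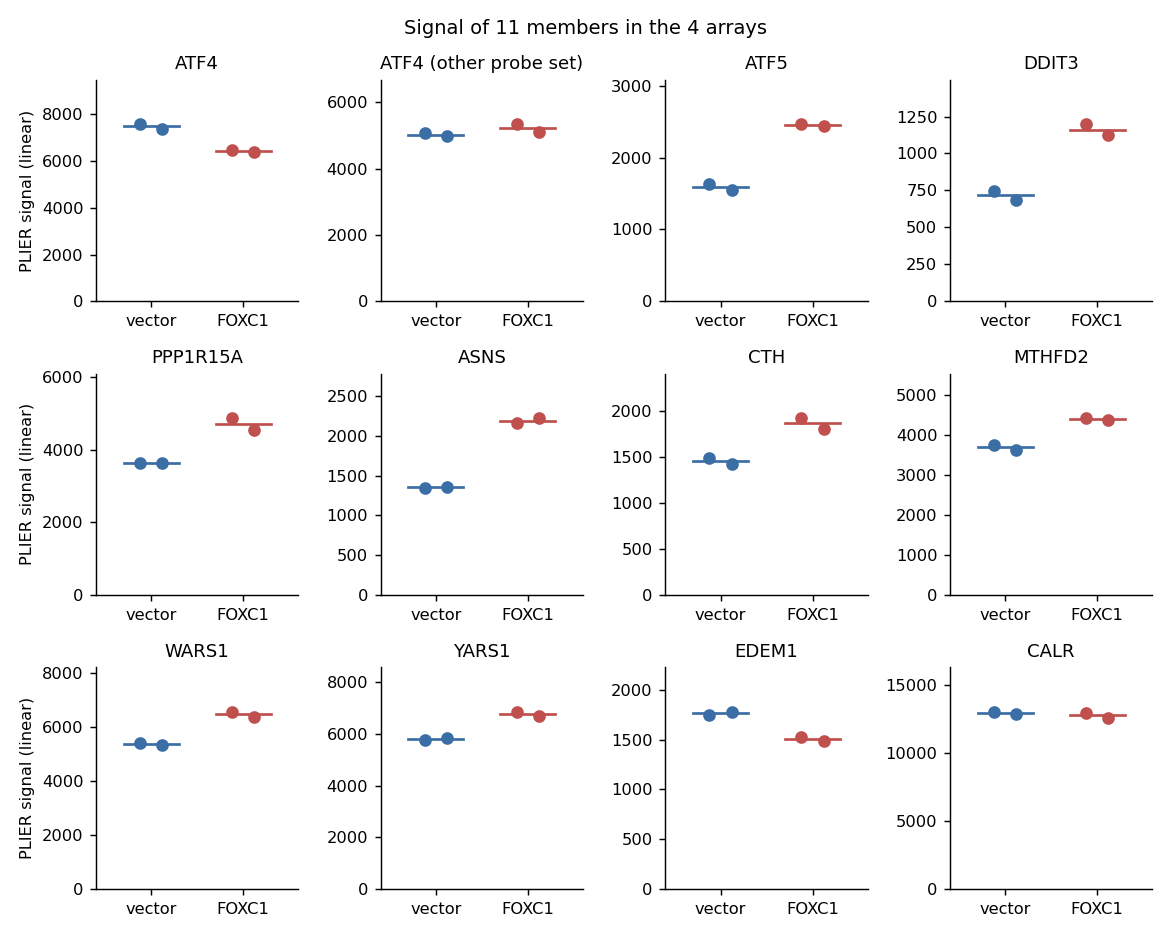
PLIER signal on a linear axis from 0 in the 2 vector (blue) and 2 FOXC1 (red) arrays for 11 genes, with both probe sets of ATF4. Points are arrays and lines are group means. Signals of ATF5, DDIT3 and ASNS separate most by fold, the ATF4 probe sets go opposite ways, and CALR overlaps.

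Of the 5 stress effectors and surface or secreted products 3 rose (60%) and none fell, where 15.9% and 15.5% of all genes did. PPP1R15A (GADD34), the phosphatase subunit that removes phosphate from eIF2 and so ends the response, rose 1.29-fold. Its signal was 3640 and 3635 in vector and 4878 and 4540 in FOXC1 arrays (log2 0.37 ± 0.04 SE, adjusted p = 4.93e-08). Both FOXC1 arrays lay clearly above the vector arrays, which differed little. SESN2, a leucine sensor that restrains mTORC1, rose 1.20-fold, from 697 and 742 to 896 and 841 (log2 0.27 ± 0.06 SE, adjusted p = 0.00286). CHAC1, an enzyme that breaks down glutathione, rose 1.16-fold, from 635 and 622 to 737 and 722 (log2 0.21 ± 0.07 SE, adjusted p = 0.0178). The groups were apart in both genes. Their calls were lost without vector replicate 1 (log2 0.22 in each), and that of CHAC1 also without vector replicate 2 (0.20). VLDLR, a lipoprotein receptor, had 605 and 610 in vector and 718 and 651 in FOXC1 arrays and did not pass (adjusted p = 0.0796). It passed without FOXC1 replicate 2 (log2 0.23) and with centring on named probe sets (adjusted p = 0.0402). The secreted glycoprotein STC2 had 134 and 120 in vector and 109 and 127 in FOXC1 arrays, which overlapped (adjusted p = 0.599). It was the 1 gene of the 43 below the 25th percentile of signal over named probe sets (277), where a change may not be seen.

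Of the 7 enzymes 5 rose (71.4%) and none fell, where 15.9% and 15.5% of all genes did. Above the 50th percentile of signal the shares were 26.6% and 25%. ASNS, which makes asparagine, rose 1.61-fold. Its signal was 1350 and 1360 in vector and 2155 and 2224 in FOXC1 arrays (log2 0.69 ± 0.05 SE, adjusted p = 1.32e-10). Replicates lay close together in either group, and ASNS held rank 107 from the top among all genes. CTH, which makes cysteine from cystathionine, rose 1.28-fold, from 1488 and 1429 to 1929 and 1810 (log2 0.35 ± 0.05 SE, adjusted p = 6.6e-06). MTHFD2, a mitochondrial folate enzyme, rose 1.19-fold, from 3763 and 3632 to 4436 and 4376 (log2 0.25 ± 0.03 SE, adjusted p = 4.03e-06). Its other probe set also rose, by 1.15-fold, from 2356 and 2363 to 2655 and 2786. In CTH and MTHFD2 the groups were apart by more than the spread of either.

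The 3 enzymes of serine synthesis did not move together. PSAT1, the aminotransferase of the pathway, rose 1.17-fold, from 4809 and 4568 to 5692 and 5328 (log2 0.23 ± 0.04 SE, adjusted p = 2.22e-05). PHGDH, the dehydrogenase that opens the pathway, had 4627 and 4910 in vector and 4951 and 4495 in FOXC1 arrays and did not pass (log2 -0.01 ± 0.04 SE, adjusted p = 0.819). PSPH, the phosphatase that closes it, had 2220 and 1997 in vector and 2067 and 1919 in FOXC1 arrays and did not pass (log2 -0.08 ± 0.05 SE, adjusted p = 0.262). PSPH did not pass on its other probe set either (adjusted p = 0.954). The groups of PHGDH and PSPH overlapped, and those of PSAT1 did not. SHMT2, which turns serine into glycine in mitochondria, rose 1.07-fold, from 9118 and 9520 to 10209 and 9741. The call of SHMT2 was lost without vector replicate 1 (log2 0.07), without FOXC1 replicate 1 (0.06) and with quantile normalization (0.06, adjusted p = 0.0901), and with unnamed probe sets fitted too (adjusted p = 0.102).

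The tRNA synthetases charge tRNAs with their amino acid, and those chosen are known ATF4 targets in other systems. Of the 11, 5 rose (45.5%) and 0 fell, where 15.9% and 15.5% of all genes did. Above the 50th percentile of signal 26.6% rose and 25% fell. WARS1, for tryptophan, rose 1.20-fold, from 5406 and 5334 to 6566 and 6374 (log2 0.27 ± 0.03 SE, adjusted p = 2.42e-07). YARS1, for tyrosine, rose 1.17-fold, from 5770 and 5841 to 6862 and 6688 (log2 0.22 ± 0.03 SE, adjusted p = 2.17e-06). These were the largest changes of the role, and WARS1 is also known as an interferon-induced gene. GARS1, for glycine, rose 1.08-fold, from 8609 and 8615 to 9321 and 9324. IARS1, for isoleucine, rose 1.08-fold, from 9776 and 9668 to 10353 and 10598. MARS1, for methionine, rose 1.07-fold, from 5447 and 5512 to 6062 and 5718. The groups were apart in these 3 genes too, but the call of MARS1 was lost without vector replicate 1 (log2 0.09) and without FOXC1 replicate 1 (0.06). All 3 calls were lost without a variance trend and with centring on all probe sets, so that 2 rises, WARS1 and YARS1, were left in the role under either choice.

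The other 6 synthetases did not pass. EPRS1, which charges glutamate and proline, had 5830 and 5922 in vector and 6095 and 6199 in FOXC1 arrays (adjusted p = 0.0906). SARS1, for serine, had 6361 and 6603 against 6871 and 6684 (adjusted p = 0.0999). Both passed with each array centred on its named probe sets (adjusted p = 0.02 and 0.0243). LARS1, for leucine, had 5472 and 5219 against 5515 and 5346 (adjusted p = 0.637). TARS1, for threonine, had 5460 and 5253 against 5392 and 5391 (adjusted p = 0.845). AARS1, for alanine, had 5006 and 4921 against 4913 and 4749 (adjusted p = 0.383), and CARS1, for cysteine, had 1704 and 1733 against 1663 and 1647 (adjusted p = 0.409). The groups overlapped in LARS1 and TARS1. In EPRS1 and SARS1 the FOXC1 arrays were the higher, in AARS1 and CARS1 the lower. The standard errors of these 6 log2 differences ran from 0.03 to 0.05.

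Of the 4 stress sensors 3 rose (75%) and 0 fell, where 15.9% and 15.5% of all genes did. Above the 50th percentile of signal 26.6% rose and 25% fell. ERN1, the ER kinase and nuclease that splices the XBP1 message, rose 1.14-fold, from 1952 and 1951 to 2180 and 2270 (log2 0.19 ± 0.04 SE, adjusted p = 0.00167). ATF6, the ER membrane factor that is cut and released on stress, rose 1.10-fold, from 6633 and 6540 to 7323 and 7189 (log2 0.14 ± 0.03 SE, adjusted p = 0.000338). EIF2AK4 (GCN2), the eIF2 kinase that senses uncharged tRNA, rose 1.07-fold, from 3933 and 3749 to 4155 and 4079. Its call was lost without vector replicate 2 (log2 0.07) and without FOXC1 replicate 1 (0.09). EIF2AK3 (PERK), the eIF2 kinase of the ER, had 1171 and 1141 in vector and 1094 and 1045 in FOXC1 arrays and did not pass (adjusted p = 0.138). FOXC1 arrays lay above vector arrays in 3 sensors and below in EIF2AK3, where 37.1% and 26.4% of all genes did so. The sensors act through phosphorylation, splicing and cleavage, which arrays of this kind do not measure. Without a variance trend the calls of ERN1 (adjusted p = 0.0517) and ATF6 (0.0861) were also lost.

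Of the 9 genes of ER folding and disposal 3 fell (33.3%) and 0 rose, where 15.5% and 15.9% of all genes did. Among genes above the 50th percentile of signal 25% fell and 26.6% rose. EDEM1, which marks misfolded glycoproteins for removal, fell 1.17-fold. Its signal was 1749 and 1781 in vector and 1531 and 1484 in FOXC1 arrays (log2 -0.23 ± 0.05 SE, adjusted p = 0.000675). HERPUD1, a scaffold of the ER disposal complex, fell 1.12-fold, from 3528 and 3347 to 3185 and 2959 (log2 -0.16 ± 0.04 SE, adjusted p = 0.00379). PDIA4, a disulfide isomerase, fell 1.10-fold, from 5067 and 5291 to 4825 and 4568 (log2 -0.14 ± 0.03 SE, adjusted p = 0.00269). Both FOXC1 arrays were below both vector arrays in all 3 genes. The call of HERPUD1 was lost without vector replicate 1 (log2 -0.12) and that of PDIA4 without vector replicate 2 (-0.11), and 1 fall, EDEM1, was left without a variance trend.

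The abundant lectin chaperones CALR and CANX, which fold glycoproteins, did not pass. CALR had 13036 and 12881 in vector and 12970 and 12537 in FOXC1 arrays (log2 -0.02 ± 0.02 SE, adjusted p = 0.483), and CANX had 17707 and 17774 against 17677 and 18398 (log2 0.02 ± 0.02 SE, adjusted p = 0.43). Their groups overlapped. PDIA6, another disulfide isomerase, had 9644 and 9576 against 9412 and 9172 (adjusted p = 0.143), with the FOXC1 arrays lower. It passed with quantile normalization (log2 -0.09, adjusted p = 0.00934) and with centring on all probe sets (adjusted p = 0.0413). SEL1L, the adaptor of the HRD1 ubiquitin ligase, had 2786 and 2689 against 2600 and 2734 (adjusted p = 0.528). SDF2L1, a cofactor of the chaperone BiP, had 582 and 611 against 640 and 641 (adjusted p = 0.293). CRELD2, a secreted ER stress protein, had 676 and 780 against 719 and 729 (adjusted p = 0.98). SEL1L and CRELD2 overlapped between groups, while SDF2L1 was the 1 gene of this role with both FOXC1 arrays higher.

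Other genes of the same pathways were read from lists, of which up to 5 genes per list are named, those that passed with the largest change. Of 23 measured further ATF4 targets 11 rose and 6 fell (47.8% and 26.1%, against 15.9% and 15.5% of all genes). Above the 50th percentile of signal 26.6% rose and 25% fell. The median log2 difference of these targets was 0.08. The largest changes were falls. DDIT4, an inhibitor of mTORC1 that is also induced by hypoxia, fell 4.56-fold, from 3558 and 3612 to 807 and 742 (adjusted p = 1.52e-18). NDRG1, also a hypoxia gene, fell 3.07-fold, from 4054 and 4049 to 1386 and 1233. The neutral amino acid carrier SLC1A4 rose 1.77-fold, from 658 and 624 to 1174 and 1120 (adjusted p = 8.65e-10). The cystine carrier SLC7A11 rose 1.62-fold, from 5794 and 5905 to 9519 and 9438 (adjusted p = 8e-15), and GADD45A, a stress gene shared with p53, rose 1.55-fold, from 1951 and 1973 to 3048 and 3034. The groups were apart in all 5, as in 63.5% of all genes. Of the 9 amino acid carriers in this list, a subset picked after their values were seen, 6 rose and 2 fell, SLC6A9 (1.37-fold) and SLC38A2 (1.10-fold). ATF3 (1.31-fold, adjusted p = 0.000662) and TXNIP (1.14-fold), also named after their values were seen, completed the 6 falls of the list.

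Of 8 measured cytosolic synthetases outside the 43 genes 4 rose (50%) and 0 fell, namely FARSB (1.11-fold), FARSA (1.09-fold), VARS1 (1.09-fold) and HARS1 (1.07-fold). Their median log2 difference of 0.07 was near the 0.06 of the 11 described above. Of 16 mitochondrial synthetases 3 rose and IARS2 fell (1.12-fold), with a median of 0.04. These shares, 18.8% and 6.25%, compare with 15.9% and 15.5% over all genes. MARS2 was the largest, rising 1.41-fold from 1506 and 1518 to 2152 and 2121, and HARS2 (1.10-fold) and CARS2 (1.09-fold) also rose. Of 14 further serine, glycine and folate enzymes 3 rose (21.4%) and 4 fell (28.6%), where 15.9% and 15.5% of all genes did. Among genes above the 50th percentile of signal 26.6% rose and 25% fell. The folate enzyme ALDH1L1 rose 1.45-fold and thymidylate synthase TYMS 1.18-fold. Glutamine synthetase GLUL fell 1.41-fold, serine racemase SRR 1.30-fold and pyruvate carboxylase PC 1.21-fold.

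Of 15 genes for eIF2, its kinases, exchange factor and phosphatases 4 rose (26.7%) and 2 fell (13.3%), where 15.9% and 15.5% of all genes did. Among genes above the 50th percentile of signal 26.6% rose and 25% fell. DNAJC3, an ER cochaperone first known as an inhibitor of eIF2 kinases, fell 1.19-fold, from 2083 and 2021 to 1753 and 1688. IMPACT, which restrains GCN2, fell 1.15-fold, from 1486 and 1432 to 1288 and 1248, and GCN1, which activates GCN2, rose 1.13-fold, from 4643 and 4613 to 5227 and 5278. EIF2B5 and EIF2S3, subunits of eIF2B and eIF2, rose 1.14-fold each.

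Of 26 further ER folding and response genes 2 rose (7.69%) and 7 fell (26.9%), with a median log2 difference of -0.01. Over all genes 15.9% rose and 15.5% fell, and above the 50th percentile of signal 26.6% rose and 25% fell. HYOU1, a large chaperone of the ER, fell 1.30-fold, from 5955 and 6041 to 4711 and 4499 (adjusted p = 3.78e-09). The disulfide isomerase PDIA5 fell 1.27-fold, from 2148 and 2127 to 1734 and 1619, and MBTPS1, the protease that first cuts ATF6, fell 1.15-fold. The cargo receptor LMAN1 rose 1.22-fold, and MBTPS2, the protease that makes the next cut, rose 1.20-fold. Named after their values were seen, HSPA5 (BiP), the chaperone that holds the sensors inactive, fell 1.07-fold, from 11052 and 10822 to 10363 and 10087 (adjusted p = 0.00325), and HSP90B1 (adjusted p = 0.619) and XBP1 (adjusted p = 0.172) did not pass. Of 17 further ER disposal genes 6 rose (35.3%) and 2 fell (11.8%), more rises than falls, whereas of the 9 ER folding and disposal genes described above 0 rose and 3 fell. EDEM2, a relative of EDEM1, fell 1.24-fold, and DERL2 (1.20-fold), MAN1B1 (1.15-fold), SELENOS (1.15-fold) and VCP (1.11-fold) rose.

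**Figure D3:**
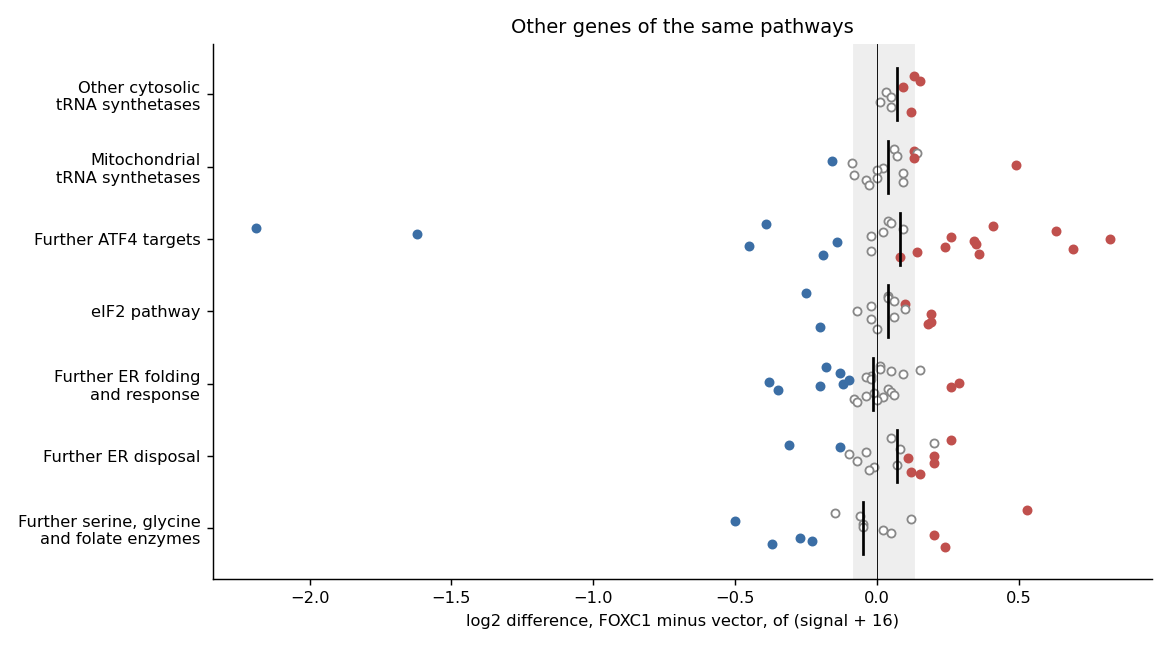
Log2 difference between FOXC1 and vector arrays for genes of 7 further lists. Red points rose, blue points fell, open points did not pass, black bars are list medians and the grey band runs from the 25th to the 75th percentile of all genes (-0.08 to 0.13). DDIT4 (-2.19) and NDRG1 (-1.62) lie far to the left of all other points, and the other cytosolic tRNA synthetases hold 4 rises and no fall.

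The 5 measured genes on each side on the chromosome were read for each of the 26 genes with a call. The log2 difference lay outside the range of the neighbours in 8 of them, ATF5, DDIT3, CHAC1, SESN2, PPP1R15A, ASNS, CTH and WARS1, and within it in 18. This share was not taken over all genes, and genes with a call tend to have larger differences. The 8 of 26 therefore has no background to be read against. Around ASNS the neighbours ran from -0.10 to 0.31, against 0.69 in ASNS. For DDIT3 they ran from -0.28 to 0.30, with its neighbour MARS1 among them, and for ATF5 from -0.28 to 0.23. ATF4 (-0.22) lay within a range from -0.42 to 0.63, and MTHFD2 (0.25) within one from -0.10 to 0.71. YARS1 rose, and of its 10 neighbours 6 fell and 1 rose (median -0.15). Around HERPUD1 4 of 10 neighbours fell and 1 rose (median -0.07), and around JDP2 3 fell and 0 rose (median -0.09). EDEM1 had 3 neighbours that fell and 1 that rose (median -0.02). Rises and falls among neighbours numbered 3 and 0 for ASNS and 2 and 1 for DDIT3 and for ATF5. They numbered 4 and 2 for ATF4 and 3 and 1 for MTHFD2. The shares of all genes were 15.9% for rises and 15.5% for falls. The part of neighbouring shifts in these changes was not tested.

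**Figure D4:**
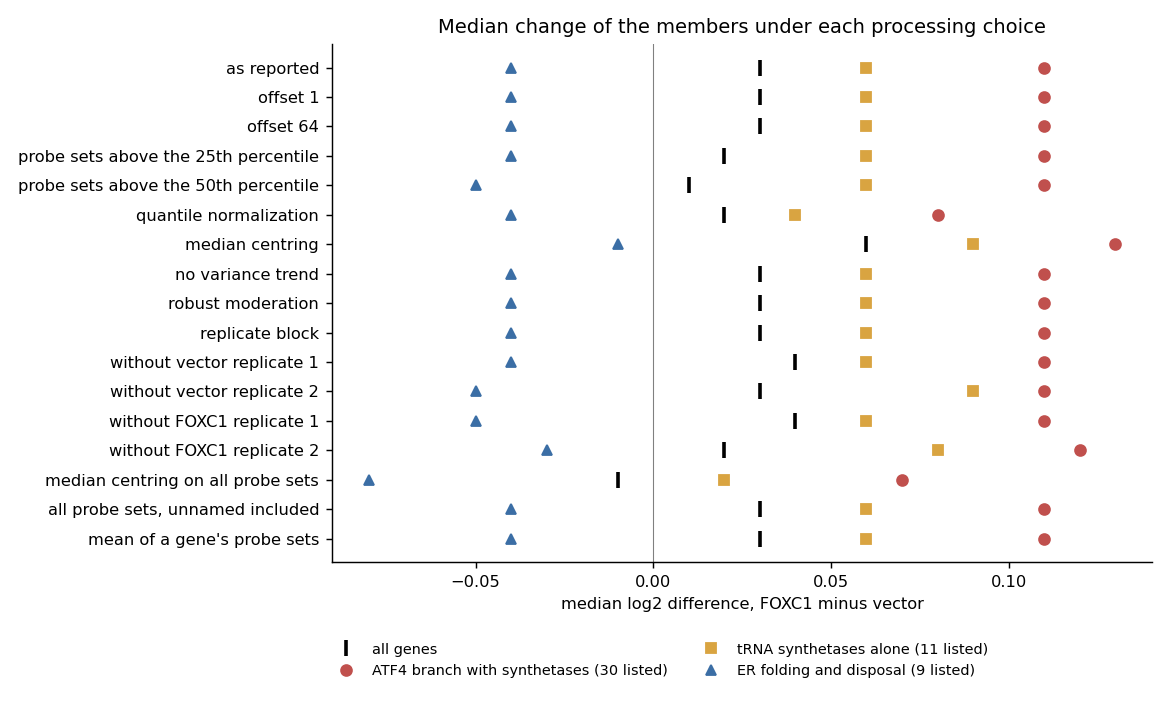
Median log2 difference, FOXC1 minus vector, of the ATF4 branch (red circles), its tRNA synthetases alone (yellow squares), the ER folding and disposal genes (blue triangles) and all genes (black bars) as reported and under 16 alternatives. The medians shift together with the scaling. The ATF4 branch is the highest and the ER genes the lowest in every row, with a gap from 0.12 to 0.17. Leaving out the variance trend, robust moderation, the replicate block and fitting unnamed probe sets leave each log2 difference as it was. Either centring shifts all genes of an array alike. Those rows could not change the order or the gap and say nothing on how stable they are.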

How the data were processed

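Total RNA (100 ng per sample) was amplified and hybridised to Affymetrix whole-transcript gene arrays, 2 per group. The authors, per the labels, made gene-level PLIER values in Affymetrix Expression Console. What they deposited is intensity, linear and never negative; versions and normalization options: not given in the sources used here.

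Signals were used as deposited, and 16 was added before log2, which shrinks changes of dim genes. Of 33297 probe sets, 21214 carried a gene symbol. These entered a fit by limma 3.58.1 under R 4.3.3 (lmFit, then moderation by eBayes with trend, two-sided, Benjamini-Hochberg, threshold 0.05; 2 residual and 18.1 prior degrees of freedom). Per gene the brightest single-symbol probe set was taken (18417 genes). Arrays carry no depth, so their number limits precision, and p-values cover the spread between arrays, which may be technical. The fit was tested on simulated data. Same-numbered arrays did not deviate together (correlation -0.015), so replicate number was a block only as an alternative.

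The genes and lists were chosen with earlier results of these data known. Named are all 43 genes and up to 5 per further list, those past the threshold with the largest change. SLC6A9, SLC38A2, ATF3, TXNIP, HSPA5, HSP90B1 and XBP1 were added after their values were seen. Promoters are RefSeq's.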

Additional observations from a re-analysis of the deposited data

How the results depend on the processing

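Of 26 calls among the 43 genes, 10 held under all 16 alternatives, 16 were lost under at least 1 and 0 changed sign, while 4 of the 17 genes without a call gained one. Without a variance trend all genes gave 1461 rises and 1790 falls, the ATF4 branch 10 and 1, the tRNA synthetases 2 rises and the ER genes 1 fall. With centring on all probe sets, chosen after seeing the data, there were 1739 rises of all genes, 10 in the ATF4 branch and 2 in the synthetases. With all probe sets fitted there were 1858 rises of all genes and 1 fall in the ATF4 branch. Quantile normalization gave a gap between the medians of the ATF4 branch and the ER genes of 0.12, against 0.15. Leaving out 1 array in turn gave 1913 to 2951 rises of all genes, 11 to 17 rises and 1 to 2 falls in the ATF4 branch, and a gap of 0.15 to 0.17. The replicate number shared no deviation between groups, and with it as a block the ATF4 branch kept its counts of 17 rises and 3 falls. The genes whose sign turned had no call. They were CRELD2 with quantile normalization (log2 0.01) and with centring on named probe sets (0.02), PHGDH (0.01) and CALR (0.00) with the latter, and LARS1 (-0.02), TARS1 (-0.03) and CANX (-0.02) with centring on all probe sets. When 1 array was left out, log2 ran from -0.08 to 0.05 in PHGDH, -0.01 to 0.06 in LARS1, -0.02 to 0.04 in TARS1, -0.10 to 0.10 in CRELD2, -0.19 to 0.00 in STC2, -0.05 to 0.00 in CALR and -0.01 to 0.05 in CANX. The causes were not tested. Below the 25th percentile of signal lay STC2 alone of the 43 genes. Above the 50th percentile 38 of the 43 were left, without STC2, CHAC1, VLDLR, SDF2L1 and CRELD2, and 16 rises of the ATF4 branch.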
